A study of Mus musculus with 6 samples.

Results

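This account describes 36 transcription regulators of the kidney tubule, chosen by name as factors of nephron lineage or of epithelial identity, among 48526 genes counted in 6 RNA sequencing libraries. The cells were primary renal tubular epithelial (RTE) cells, grown on plastic from liberase-digested kidney cortex of mice aged 4 to 5 weeks, in a medium that held hydrocortisone (100 nM) and EGF (20 ng/ml). The 3 KO libraries came from mice with floxed Setd2 alleles and the Ksp-Cre transgene (Setd2(F/F)Ksp-Cre+, labelled SETD2-deficient), and the 3 WT libraries from littermates with the floxed alleles alone (Setd2(F/F), labelled SETD2-proficient). Setd2 encodes the enzyme that trimethylates lysine 36 of histone H3, and Ksp-Cre is driven by the promoter of Ksp-cadherin (Cdh16), a gene of tubule epithelium. Every KO library carries Cre and no WT library does, so an effect of Cre and an effect of the Setd2 deletion cannot be told apart. Whether each replicate is a separate mouse is not stated in the labels. The p-values therefore set the difference between the groups against the spread of these libraries only, and some of that spread may be technical.

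The tubule is laid down and then kept in its segments by a layered set of DNA-binding proteins. PAX2, PAX8 and LHX1 establish the nephric lineage. HNF4A drives the proximal tubule, the IRX factors and POU3F3 pattern the middle of the nephron, TFAP2 factors act in the distal nephron, and TFCP2L1 with FOXI1 specifies intercalated cells of the collecting duct. GRHL, OVOL, ELF and KLF factors act in many epithelia, where they keep junction genes on and mesenchymal genes off.

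Total counts ran from 86078636 to 106974842 per library. Setd2 itself was at 168 ± 16.3 CPM (a gene's reads per 1000000 reads counted, with TMM-adjusted library sizes, here and below as mean ± SD over 3 libraries) in WT and 158.5 ± 4.86 CPM in KO, with an edgeR adjusted p of 0.481, and gene-level counts do not check the deletion because which exons are floxed is not stated in the labels. The cultures carried epithelial RNA: the summed level of Cdh16, Cdh1, Epcam, Krt8, Krt18 and Pax8 was 6270 to 7296 CPM in WT and 7192 to 7263 CPM in KO. Xist, made from the inactive X chromosome, was at 507 and 606 CPM in KO replicates 2 and 3 and between 0.348 and 0.683 CPM in the other 4 libraries, so sex and genotype partly coincide. Markers of other kidney cells differed in level too. The summed level of 10 podocyte markers was 114.3 to 116 CPM in WT and 179.7 to 215 CPM in KO, and that of 12 endothelial markers 24.6 to 26.5 CPM in WT and 36.2 to 49.1 CPM in KO. The 12 fibroblast and pericyte markers summed to 115.4 to 155.2 CPM in WT and 121.7 to 202 CPM in KO, and the 12 leukocyte markers to 39.6 to 46.9 CPM and 51.3 to 59.2 CPM. The fibroblast and pericyte sums overlapped between the groups. The sum of the 6 urothelial markers went the other way, though not each marker did, with WT libraries between 3.31 and 3.95 CPM and KO libraries between 2.25 and 3.17 CPM. The largest part of that sum was Trp63, whose mean was 2.40 CPM (WT) and 1.42 CPM (KO). Krt5 was lower on average too (0.162 against 0.113 CPM) but was not called. The means of Upk1a (0.837 against 0.886 CPM) and Upk2 (0.173 against 0.239 CPM) were not lower in KO. Upk1b and Upk3a were below the filter. No marker of these lists was at 0 in all libraries. By edgeR, 5 of 10 podocyte, 7 of 12 endothelial, 6 of 10 tested fibroblast and pericyte and 4 of 11 tested leukocyte markers were higher in KO (beside 12.0% of all genes). With the model term for Xist described below, 2, 6, 4 and 1 were (beside 5.00% of all genes). None of these 4 lists had a marker lower by edgeR (beside 9.08%), while DESeq2 called 1 leukocyte marker lower and 1 was lower at an unadjusted edgeR p below 0.05. Of 4 tested urothelial markers 1, Trp63, was lower. Their part in the changes below was not tested. In bulk cultures, fewer cells of a type and less RNA per cell cannot be told apart.

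Of the 36 factors, 33 had enough counts for the test, and 11 of those differed between KO and WT. Hnf4a, Osr2, Irx3, Wt1, Tfap2a, Pax2, Klf5, Esrrg and Elf5 were higher in KO, and Irx2 and Grhl2 were lower. The increases ran from 1.27-fold (Elf5) to 4.51-fold (Hnf4a), and the decreases were to 0.705-fold (Irx2) and 0.767-fold (Grhl2) of the WT level. The other 22 tested factors, among them the abundant Pax8, Ehf, Sox4, Sox9, Emx2 and Mecom, did not pass the threshold. In the edgeR quasi-likelihood fit, with a threshold of 0.05 on the p adjusted after Benjamini and Hochberg, 9 of 33 (27.3%) were higher and 2 of 33 (6.06%) lower, beside 12.0% and 9.08% of all 17571 tested genes. The median log2 fold change was 0.21 over the 33 factors and -0.01 over all tested genes. The lowest KO library was above the highest WT library for 12 factors (36.4%, beside 20.6% of all genes) and the reverse held for 3 (9.09%, beside 21.3%).

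**Figure D1:**
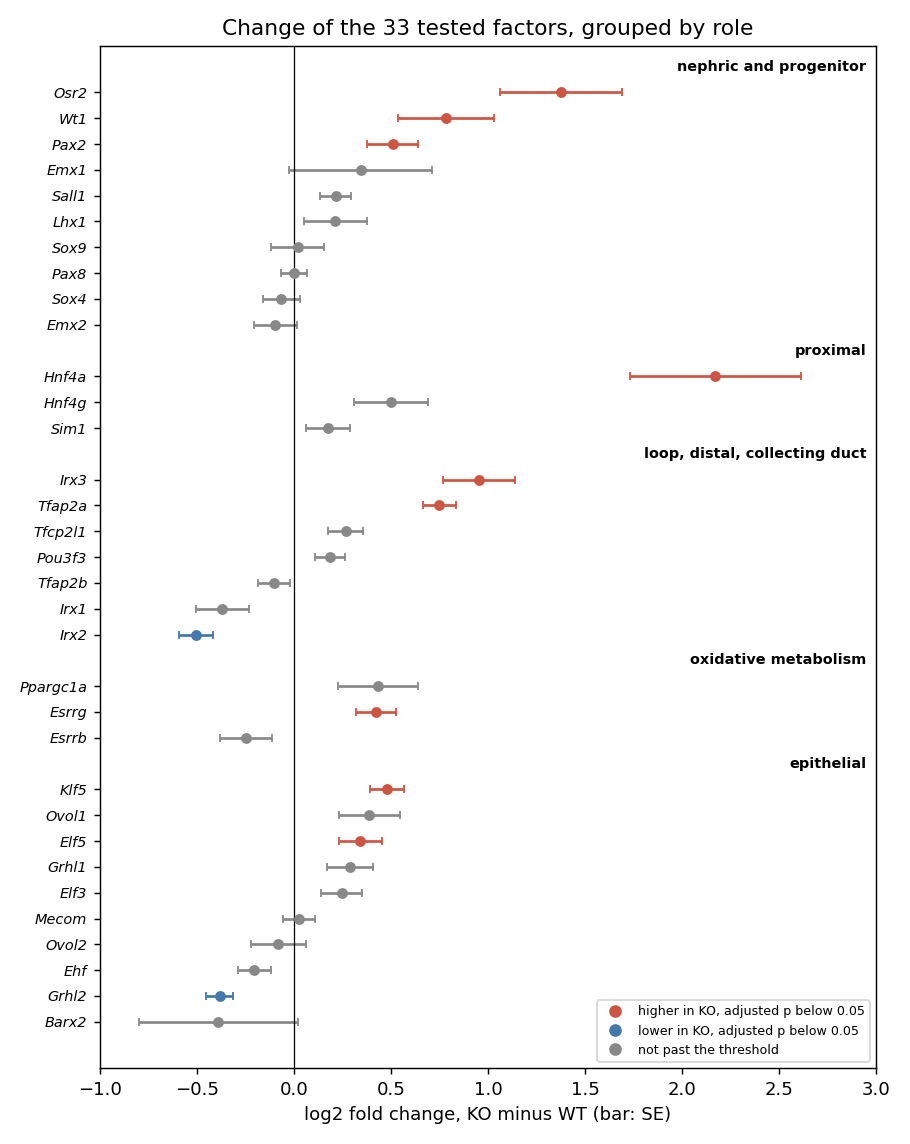
Log2 fold change of KO over WT for the 33 tested factors, grouped by role, with its standard error as a bar and colour for the side of the adjusted p threshold of 0.05. Hnf4a stands farthest to the right at 2.17, and Irx2 (-0.50) and Grhl2 (-0.38) are the 2 called factors to the left of 0.

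Which libraries were compared mattered for most of these calls. With Xist status added to the model (the Xist term, which sets KO replicates 2 and 3 apart), 3 of 33 factors were higher (9.09%, beside 5.00% of all genes) and none lower (beside 1.62%; 2 lower at an unadjusted p below 0.05 in that edgeR fit). The 3 were Tfap2a, Irx3 and Klf5, and the same 3 remained when the Xist-positive libraries were left out altogether (9.09%, beside 3.92% of all genes), again with none lower (beside 0.963%; 2 lower at an unadjusted p below 0.05). Without WT replicate 2, 6 factors were higher and 2 lower (beside 8.71% and 5.56% of all genes). Without KO replicate 1 the numbers were 6 and 2 (beside 6.83% and 2.53%), and without KO replicate 3 they were 7 and 2 (beside 7.37% and 3.41%). These 3 factors passed the threshold in all 16 alternatives tried. The other 8 calls ended with the Xist term, with adjusted p-values from 0.0811 (Elf5) to 0.294 (Pax2). Both fits compare KO replicate 1 with WT, with fewer residual degrees of freedom. The 8 log2 fold changes in the fit with the Xist term kept their sign, and moved both ways in size. Those of Hnf4a (1.09 against 2.17), Irx2 (-0.34 against -0.50), Pax2 (0.34 against 0.51), Osr2 (1.20 against 1.37) and Grhl2 (-0.35 against -0.38) were closer to 0. Those of Wt1 (0.93 against 0.78), Esrrg (0.49 against 0.42) and Elf5 (0.49 against 0.34) were farther from it.

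**Figure D2:**
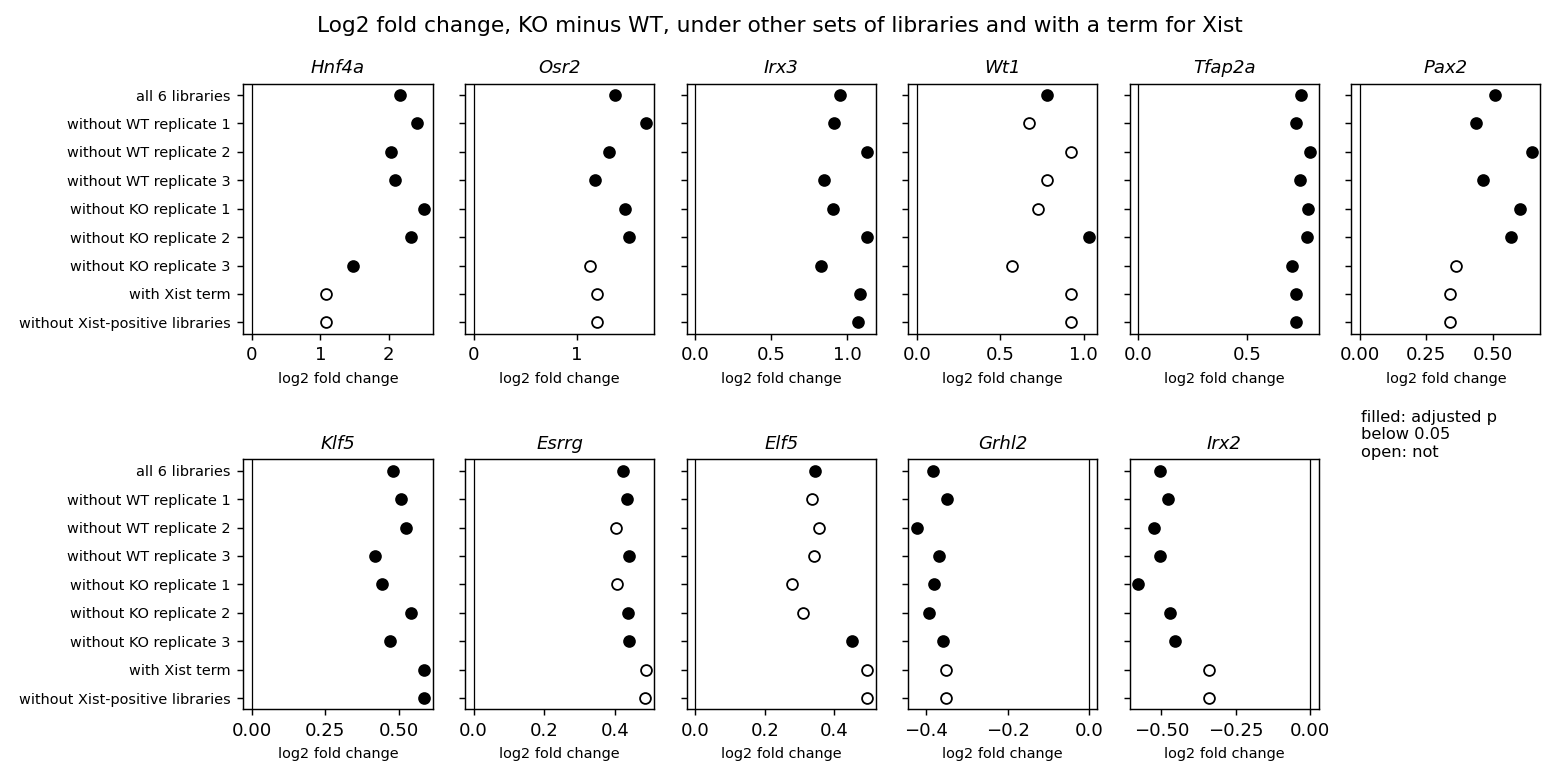
Log2 fold change (KO minus WT) of the 11 called factors when all 6 libraries were used, when each library was left out, with a term for Xist and without the Xist-positive libraries; filled points passed an adjusted p of 0.05 and open points did not. Tfap2a, Irx3 and Klf5 are filled in every line, while Wt1 and Elf5 are open in most.

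The factors differed widely in abundance per kilobase of exon, the scale on which levels of different genes can be compared. In WT the highest were Tfcp2l1 at 26.4 ± 1.74 CPM per kilobase, Pax8 at 24.3 ± 0.754, Ehf at 23.2 ± 2.52 and Elf3 at 21.8 ± 2.36, neighbours that lie within their spread of each other. Irx2 (14.7 ± 0.383), Sox4 (13.1 ± 1.52), Emx2 (12.3 ± 0.682), Sox9 (11.7 ± 1.78) and Grhl2 (11.1 ± 0.552) followed. The lowest tested factors were Barx2 at 0.0619, Osr2 at 0.0602 and Hnf4a at 0.0554 CPM per kilobase in WT. Their order does not hold beyond their spread. The order depends on the length used: per kilobase of the longest transcript Pax8 was the highest in WT, at 43.4, above Ehf at 29.0 and Tfcp2l1 at 26.9, and Grhl2 was at 19.3.

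**Figure D3:**
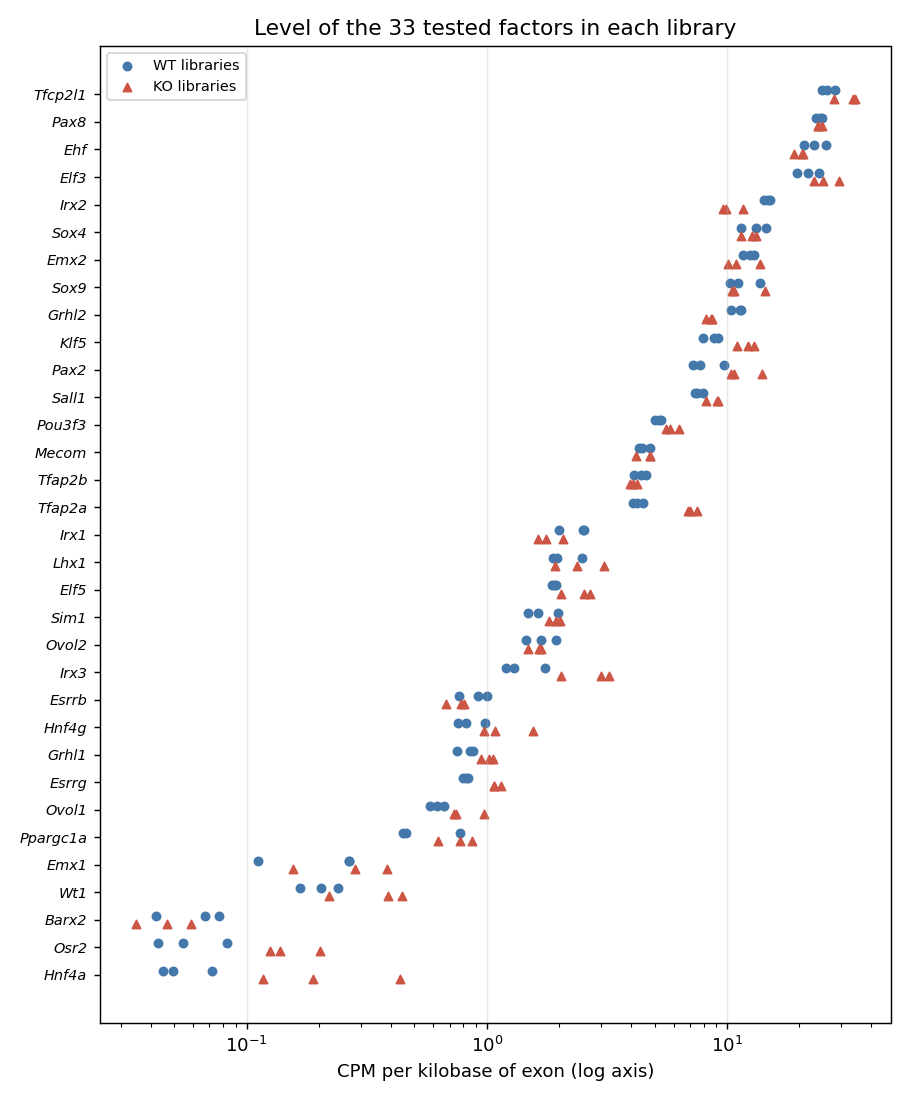
Level of each tested factor in every library, as CPM per kilobase of exon on a log axis, ordered by the WT mean (circles WT, triangles KO). Tfcp2l1, Pax8, Ehf and Elf3 are at the top, and Hnf4a, Osr2 and Barx2 are at the bottom.

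Among the 11 nephric and nephron progenitor factors, 10 were tested and 3 were higher in KO, beside 12.0% of all genes. None was lower by edgeR, at an unadjusted p below 0.05 or with DESeq2. Pax2, the paired-box factor of nephric duct and ureteric bud (ENSMUSG00000004231, mm10 chromosome 19, 44756045 to 44837871), was at 39.2, 52.7 and 41.9 CPM in WT replicates 1 to 3 and at 56.4, 58.1 and 75.7 CPM in KO replicates 1 to 3. The groups did not overlap, and KO replicate 3 was the highest library. The log2 fold change was 0.51 ± 0.13 (SE, as below), with an edgeR adjusted p of 0.0198, and without KO replicate 3 it was 0.36 with an adjusted p of 0.0901. Pax8, its paralog and the most abundant factor of this role per kilobase, was at 151.5, 147.4 and 142.4 CPM in WT and 151.6, 145.1 and 144.7 CPM in KO. Pax8 had a log2 fold change of 0.00 ± 0.07 (adjusted p = 0.999) and its groups overlapped. The difference between the changes of Pax2 and Pax8 was not tested.

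Osr2 and Wt1, the other called factors of this role, were scarce. Osr2, an odd-skipped zinc finger protein (chromosome 15, 35296098 to 35303305), was at 0.301, 0.198 and 0.155 CPM in WT and 0.499, 0.452 and 0.733 CPM in KO. These values rest on 62 reads in the 3 WT and 159 reads in the 3 KO libraries together, and the groups did not overlap. Osr2 had a log2 fold change of 1.37 ± 0.32 (adjusted p = 0.0115), and without KO replicate 3 the adjusted p was 0.0559. Its relative Osr1, which marks the intermediate mesoderm, was below the filter, with 27 reads in WT and 17 in KO. Wt1, the zinc finger factor of nephron progenitors and podocytes (chromosome 2, 105126529 to 105173616), was at 1.03, 1.49 and 1.26 CPM in WT and 2.40, 1.36 and 2.76 CPM in KO. KO replicate 2 lay within the WT range, so the groups overlapped. The log2 fold change of Wt1 was 0.78 ± 0.25 (adjusted p = 0.0449), a call that was lost without any single library except KO replicate 2 (adjusted p from 0.0579 to 0.182).

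Wt1 is also a podocyte marker, and its level stood beside those of that cell type. Podxl (podocalyxin) was at 79.0 ± 1.51 CPM in WT and rose to 139.2 ± 13.1 CPM (adjusted p = 8.7e-05). Nphs1 (nephrin) was at 0.397 ± 0.0584 and 0.604 ± 0.188 CPM and did not pass the threshold (adjusted p = 0.13). Lmx1b, a LIM homeobox factor that podocytes require, rose from 0.272 ± 0.117 to 0.688 ± 0.264 CPM (adjusted p = 0.0237). Its call was lost with the Xist term (0.193) and without WT replicate 1, WT replicate 3, KO replicate 1 or KO replicate 3 (adjusted p from 0.0524 to 0.112). The share of these changes that podocyte RNA makes up was not tested.

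The remaining progenitor factors did not pass the threshold. Sall1, a spalt zinc finger protein of the metanephric mesenchyme, was at 39.6, 41.8 and 39.0 CPM in WT and 43.2, 48.0 and 48.5 CPM in KO. Its groups did not overlap, with a log2 fold change of 0.21 ± 0.08 and an adjusted p of 0.0753. Lhx1 (log2 fold change 0.21 ± 0.16), Emx1 (0.34 ± 0.37), Emx2 (-0.10 ± 0.11), Sox4 (-0.07 ± 0.09) and Sox9 (0.02 ± 0.14) had adjusted p-values from 0.375 to 0.937. Sox9, which is known to rise in tubule cells under repair, was abundant in both groups, at 48.5 ± 7.35 CPM in the WT and 49.1 ± 9.28 CPM in the KO libraries. Emx2, a homeobox factor of the ureteric bud, was at 37.1 ± 2.05 and 34.7 ± 5.69 CPM.

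Hnf4a, the nuclear receptor that drives proximal tubule genes (ENSMUSG00000017950, chromosome 2, 163506808 to 163572910), had the largest fold change of the 33 factors with all libraries. With the Xist term its log2 fold change (1.09) was below that of Osr2 (1.20). It was at 0.347, 0.216 and 0.238 CPM in WT and 0.567, 0.914 and 2.10 CPM in KO. All 3 KO libraries were above all WT libraries, and KO replicate 3 was far above the other KO libraries. In reads, the gene had 76 in the 3 WT libraries and 343 in the 3 KO libraries. The log2 fold change was 2.17 ± 0.44 (adjusted p = 0.00615), and without KO replicate 3 it was 1.48 (adjusted p = 0.0162). RefSeq lists 2 starts for Hnf4a among its promoter windows, and gene-level counts do not tell transcripts of the 2 starts apart. Both windows, from 250 bases before to 50 after the start, are shown because the rise could come from either. They are on GRCm38.p6, plus strand, at chr2:163506607-163506906 and chr2:163546905-163547204, and the capitals mark a match to the IRX core ACANNTGT, which is its own reverse complement.
Hnf4a first start: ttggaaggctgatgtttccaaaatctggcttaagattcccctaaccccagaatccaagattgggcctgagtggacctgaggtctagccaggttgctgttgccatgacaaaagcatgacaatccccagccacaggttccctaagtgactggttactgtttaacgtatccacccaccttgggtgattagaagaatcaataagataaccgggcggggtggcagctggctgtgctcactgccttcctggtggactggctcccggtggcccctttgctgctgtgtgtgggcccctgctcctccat
Hnf4a second start: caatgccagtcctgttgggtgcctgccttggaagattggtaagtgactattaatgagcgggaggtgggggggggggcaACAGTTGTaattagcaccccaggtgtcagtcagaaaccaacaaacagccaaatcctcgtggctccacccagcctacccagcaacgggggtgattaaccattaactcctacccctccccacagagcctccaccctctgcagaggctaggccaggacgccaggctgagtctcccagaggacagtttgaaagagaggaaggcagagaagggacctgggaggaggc
The IRX core was in the second window only, and 7.38% of all 32851 RefSeq windows of this length hold it. Neither window held the HNF4 element CAAAGTCCA on either strand, which is in 0.475% of all windows. A match or its absence describes these letters alone.

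The other factors placed with the proximal tubule did not pass the threshold. Hnf4g, the close relative of Hnf4a, was at 2.58, 2.17 and 1.99 CPM in WT and 2.55, 4.11 and 2.84 CPM in KO, with a log2 fold change of 0.50 ± 0.19 (adjusted p = 0.0841). Within a library, the CPM ratio of Hnf4a to Hnf4g was 0.1 to 0.135 in WT and 0.222, 0.223 and 0.738 in KO replicates 1 to 3. Sim1, a basic helix-loop-helix factor, was at 14.7 ± 2.21 CPM in the WT and 16.6 ± 0.84 CPM in the KO libraries (adjusted p = 0.285).

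Genes of the proximal tubule that are known to depend on HNF4A, or on a related factor not reported here, were mostly too low to test. Of 22 listed genes, 12 were below the filter, including the transporters Slc34a1, Slc22a6 and Slc5a2. Of the 10 tested, 5 were higher in KO, beside 12.0% of all genes, and none was lower by edgeR, at an unadjusted p below 0.05 or with DESeq2. Gatm, which makes the creatine precursor guanidinoacetate, was at 5.17, 4.78 and 5.30 CPM in WT and 11.8, 11.9 and 11.4 CPM in KO (log2 fold change 1.21 ± 0.10, adjusted p = 2.6e-05). Anpep, a brush border aminopeptidase, rose from 0.448 ± 0.0409 to 1.16 ± 0.348 CPM. Ass1, the argininosuccinate synthase, was at 102.9 ± 9.5 CPM in WT and rose to 137.6 ± 3.14 CPM. Lrp2 (megalin) was also among the 5, while Cubn, the partner of megalin, was at 8.29 ± 0.55 and 7.16 ± 0.201 CPM (adjusted p = 0.156). The median log2 fold change of the 10 was 0.53. With the Xist term, 2 of the 10 stayed past the threshold, Gatm and Anpep (beside 5.00% of all genes higher).

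Among 9 factors of the loop of Henle, distal tubule and collecting duct, 7 were tested, with Tfap2a and Irx3 higher (2 of 7, beside 12.0% of all genes) and Irx2 lower in KO (1 of 7, beside 9.08%). Tfap2a, an AP-2 factor (ENSMUSG00000021359, chromosome 13, 40715302 to 40738376), had the smallest adjusted p of all 33 factors. It was at 19.8, 22.0 and 20.7 CPM in WT and 34.5, 33.7 and 37.0 CPM in KO. The 2 groups were far apart beside their spread, and the 3 KO libraries were close to each other whether or not they carried Xist. The log2 fold change was 0.75 ± 0.08 (adjusted p = 0.000221), with 0.71 to 0.79 when single libraries were left out and 0.73 with the Xist term. Its paralog Tfap2b, which distal tubule cells require, was at 27.9, 29.2 and 26.0 CPM in WT and 25.1, 25.7 and 26.6 CPM in KO (log2 fold change -0.10 ± 0.08, adjusted p = 0.395). The CPM ratio of Tfap2a to Tfap2b within a library was 0.71 to 0.794 in WT and 1.31 to 1.39 in KO. Tfap2c, the third AP-2 gene of the set, had 5 reads in the 3 WT and 12 in the 3 KO libraries. The 0 reads of WT replicate 1 allow up to 0.0347 CPM.

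RefSeq windows of Tfap2a and of the 2 called Irx genes are shown as those of an AP-2 gene and of the factors of its role that were called with it. AP-2 proteins bind a short palindrome, GCCNNNGGC, which was searched for in all windows. The windows are on GRCm38.p6, 5′ to 3′ on the gene's strand: chr13:40733746-40734045 and chr13:40734871-40735170, both minus, for Tfap2a, chr13:72628570-72628869, plus, for Irx2, and chr8:91801605-91801904, minus, for Irx3. Capitals mark the AP-2 palindrome.
Tfap2a window nearer the gene's end: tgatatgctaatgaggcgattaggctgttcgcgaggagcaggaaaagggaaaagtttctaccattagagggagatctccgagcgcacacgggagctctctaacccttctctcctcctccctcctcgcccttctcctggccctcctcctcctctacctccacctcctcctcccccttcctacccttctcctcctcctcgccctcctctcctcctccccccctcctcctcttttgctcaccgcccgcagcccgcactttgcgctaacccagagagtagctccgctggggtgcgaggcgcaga
Tfap2a window farther from it: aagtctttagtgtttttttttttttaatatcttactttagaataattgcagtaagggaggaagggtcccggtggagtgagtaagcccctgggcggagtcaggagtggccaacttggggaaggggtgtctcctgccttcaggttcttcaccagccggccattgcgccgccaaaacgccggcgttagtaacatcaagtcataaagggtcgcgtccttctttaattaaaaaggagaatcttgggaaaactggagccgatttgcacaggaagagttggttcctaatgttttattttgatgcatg
Irx2 window: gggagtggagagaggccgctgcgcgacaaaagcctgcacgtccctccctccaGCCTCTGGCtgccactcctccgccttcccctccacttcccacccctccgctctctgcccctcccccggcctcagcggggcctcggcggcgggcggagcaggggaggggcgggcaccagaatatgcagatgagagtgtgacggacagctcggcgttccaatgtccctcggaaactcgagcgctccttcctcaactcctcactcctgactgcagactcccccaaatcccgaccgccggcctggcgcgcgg
Irx3 window: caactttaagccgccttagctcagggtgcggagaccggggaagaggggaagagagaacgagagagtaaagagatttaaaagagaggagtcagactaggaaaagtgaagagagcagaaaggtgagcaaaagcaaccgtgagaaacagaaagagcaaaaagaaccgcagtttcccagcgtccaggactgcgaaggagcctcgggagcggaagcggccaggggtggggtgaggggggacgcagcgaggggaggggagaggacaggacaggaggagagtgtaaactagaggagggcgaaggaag
The AP-2 palindrome was found in the Irx2 window and in neither the Tfap2a nor the Irx3 windows. Over the 37 windows that RefSeq gives for 24 of the 36 factors, 8 (21.6%) held it, beside 16.6% of all windows. Among called factors whose windows are not shown, 1 Pax2 window and 1 Esrrg window held it, and no Elf5 window did. The Irx2 window had 25 CpG dinucleotides and a GC content of 69%, and the Irx3 window 14 and 56%, beside medians of 7 and 52.7% over all windows.

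The Iroquois homeobox genes, which pattern the middle segments of the nephron, lie in 2 clusters. Irx1, Irx2 and Irx4 are on chromosome 13, and Irx3, Irx5 and Irx6 on chromosome 8. Irx2 (chromosome 13, 72628820 to 72634198), the most abundant of them per kilobase, was at 49.5, 47.0 and 48.6 CPM in WT and 38.2, 32.4 and 31.6 CPM in KO. KO replicate 1 was the highest KO library, and the groups did not overlap. Its log2 fold change was -0.50 ± 0.09 (adjusted p = 0.00305), and -0.34 with the Xist term (adjusted p = 0.108). Irx1, its neighbour (71957921 to 71963723), was at 5.22, 6.63 and 6.61 CPM in WT and 4.60, 4.27 and 5.42 CPM in KO, with a log2 fold change of -0.37 ± 0.14 that did not pass (adjusted p = 0.0757).

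Irx3, in the other cluster (chromosome 8, 91798525 to 91802067), went the other way. It was at 3.59, 4.81 and 3.33 CPM in WT and 8.26, 5.63 and 8.88 CPM in KO. KO replicate 2 was the lowest KO library and still above all WT libraries. The log2 fold change was 0.95 ± 0.18 (adjusted p = 0.00497), and 1.08 with the Xist term (adjusted p = 0.0349). Irx5, the neighbour of Irx3, was at 0.429 ± 0.00422 CPM in the WT and 0.320 ± 0.0877 CPM in the KO libraries (log2 fold change -0.42 ± 0.27, adjusted p = 0.287). Of the Iroquois homeobox genes in this cluster, only Irx3 was called. Irx3os, the antisense gene at Irx3 described below, was also called higher. The CPM ratio of Irx3 to Irx2 was 0.0725, 0.102 and 0.0687 in WT and 0.216, 0.174 and 0.281 in KO. Irx4, which was looked up after the values of its neighbours were seen, and Irx6 were below the filter.

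The factors of the distal nephron and collecting duct that did not pass were Tfcp2l1 and Pou3f3, besides Tfap2b and Irx1. Tfcp2l1, one of the most abundant factors of the set per kilobase and a regulator of collecting duct cells, was at 267.4, 246.2 and 235 CPM in WT and 316.8, 321.1 and 262.9 CPM in KO. KO replicate 3 lay within the WT range. On the log2 scale the fold change was 0.27 ± 0.09 with an adjusted p of 0.0577, which fell below the threshold in 7 of 16 alternatives, for example 0.028 without KO replicate 3. Pou3f3 (BRN1), which the loop of Henle requires, was at 38.7, 39.3 and 37.1 CPM in WT and 41.5, 42.9 and 46.6 CPM in KO. Its groups did not overlap, with a log2 fold change of 0.19 ± 0.08 (adjusted p = 0.11). Foxi1, the master factor of intercalated cells, had 2 reads in the 3 WT and 6 in the 3 KO libraries and was not tested. Its 0 reads in WT replicate 2 allow up to 0.0282 CPM.

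**Figure D4:**
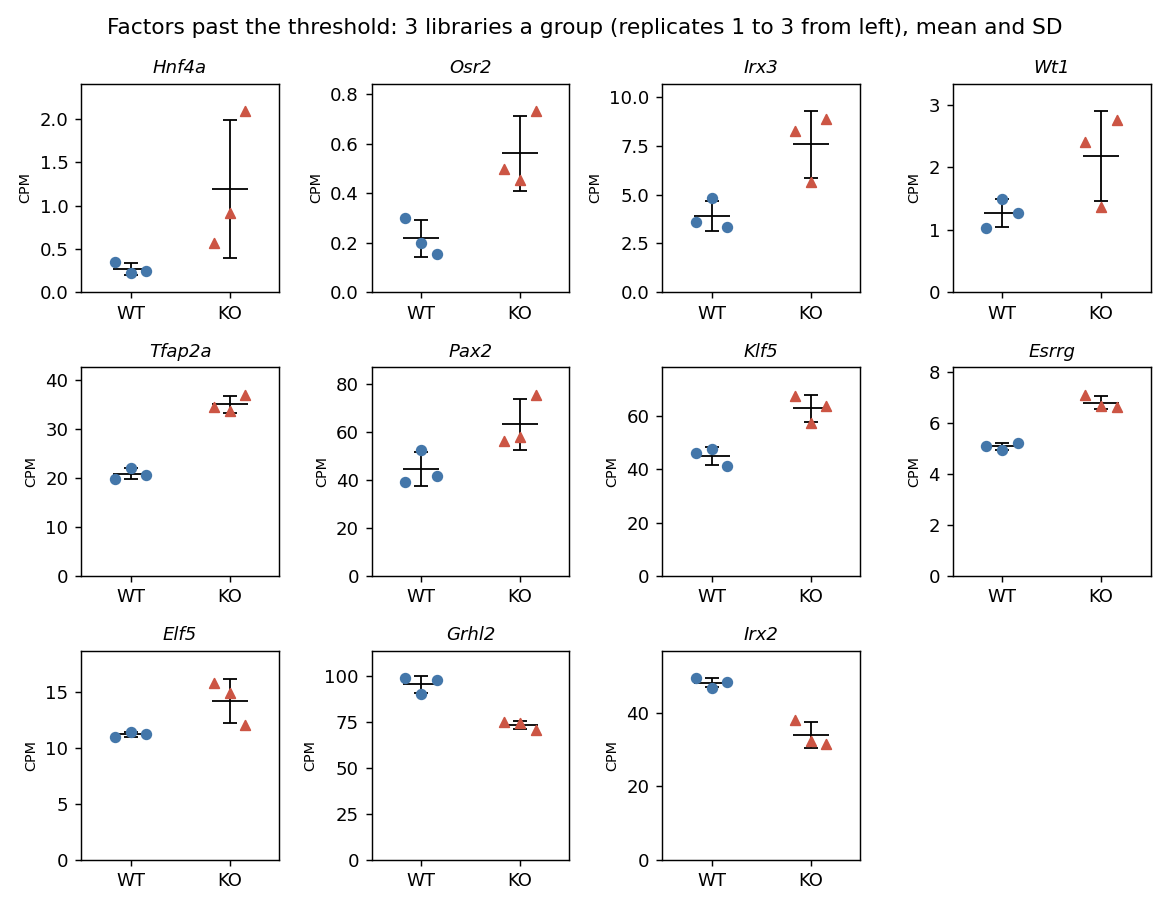
CPM of the 11 called factors in each library (circles WT, triangles KO, replicates 1 to 3 from left to right), with the mean and SD as a line and bar, on axes that start at 0. The groups are apart in 10 panels, and in the Wt1 panel KO replicate 2 (1.36 CPM) lies among the WT libraries.

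Genes of the segments in which these factors act changed in both directions. Of 16 tested loop and distal convoluted tubule genes, 4 were higher (beside 12.0% of all genes) and 1 was lower (beside 9.08%). Kcnj10, a basolateral potassium channel, rose from 2.21 ± 0.226 to 4.30 ± 0.207 CPM (adjusted p = 0.000806), and Bsnd, Kcnj1 and Slc12a3 were the other 3. With the Xist term, without WT replicate 2 or without KO replicate 3, 2 genes of this list were higher (beside 5.00%, 8.71% and 7.37% of all genes). Without KO replicate 1 (beside 6.83%) or KO replicate 2 (share of all genes not given here) there was 1. The 2 with the Xist term were Kcnj10 (adjusted p = 0.0105) and Ptger3 (0.0285), a prostaglandin receptor gene that was not called with all libraries (0.227) and is named after its values were seen. The calls of Bsnd (0.101), Kcnj1 (0.139) and Slc12a3 (0.208) ended. With the Xist term none was lower by edgeR (beside 1.62% of all genes), with 1 lower at an unadjusted p below 0.05. Of 15 listed intercalated cell genes, 8 were tested, with 2 higher and 1 lower, beside 12.0% and 9.08% of all genes. Car2 and Car12, carbonic anhydrases, rose, Car2 from 289.7 ± 14.9 to 355.7 ± 25.2 CPM and Car12 from 19.1 ± 1.25 to 24.5 ± 1.64 CPM, and Kit fell from 3.22 ± 0.219 to 2.32 ± 0.379 CPM. These 3 calls depended on single libraries and ended with the Xist term (adjusted p = 0.069, 0.239 and 0.526). The intercalated cell genes Slc4a1, Slc26a4 and Atp6v1b1 were below the filter, as was Foxi1.

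Esrrg, an orphan nuclear receptor that drives mitochondrial genes, was the called factor of oxidative metabolism. It was at 5.07, 4.93 and 5.20 CPM in WT and 7.10, 6.64 and 6.63 CPM in KO. The groups were apart and the libraries of each lay close together. Its log2 fold change was 0.42 ± 0.10 (adjusted p = 0.0162), which was 0.0594 without WT replicate 2 and 0.0693 without KO replicate 1. Ppargc1a (PGC1-alpha), the coactivator of mitochondrial biogenesis, was at 5.11, 2.96 and 3.04 CPM in WT and 5.71, 5.12 and 4.13 CPM in KO. WT replicate 1 stood apart from its group, and the log2 fold change was 0.43 ± 0.21 (adjusted p = 0.153). Without WT replicate 1 it was 0.74 with an adjusted p of 0.00655. Esrrb was at 5.43 ± 0.721 and 4.57 ± 0.42 CPM (adjusted p = 0.206).

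Among 21 tested oxidative genes in which PPARGC1A and ESRR proteins are known to act, 2 were higher and 2 lower, beside 12.0% and 9.08% of all genes. Ucp2, a mitochondrial carrier, rose from 144.5 ± 24.9 to 224.9 ± 17.9 CPM, and Perm1 from 5.31 ± 0.632 to 6.91 ± 0.369 CPM. Ldhb, a lactate dehydrogenase, fell from 378.4 ± 40.4 to 296.6 ± 16.3 CPM, and Tfam, which maintains mitochondrial DNA, from 46.9 ± 2.38 to 39.3 ± 2.06 CPM. All 4 calls ended with the Xist term (Ucp2 0.0811, Perm1 0.194, Ldhb 0.0906, Tfam 0.207). None was then lower, with 2 lower at an unadjusted p below 0.05 in that edgeR fit, where 5.00% of all genes were higher and 1.62% lower. The 1 gene then higher was Pdk4 (adjusted p = 0.0137), a kinase gene named after its values were seen, which was not called with all libraries (0.124). Leaving out WT replicate 1, WT replicate 2 or any KO replicate left 1 higher and at most 1 lower. Of all genes, 8.71% were higher and 5.56% lower without WT replicate 2. The shares were 6.83% and 2.53% without KO replicate 1, and 7.37% and 3.41% without KO replicate 3. Those without WT replicate 1 or KO replicate 2 are not given here.

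Of the 10 general epithelial factors, Klf5 and Elf5 were higher (2 of 10, beside 12.0% of all genes) and Grhl2 was lower in KO (1 of 10, beside 9.08%). Klf5, a Krüppel-like factor of collecting duct and gut epithelium (ENSMUSG00000005148, chromosome 14, 99298691 to 99315036), was at 46.0, 47.7 and 41.3 CPM in WT and 67.6, 57.3 and 63.6 CPM in KO. The groups did not overlap, and the lowest KO library was replicate 2. On the log2 scale the fold change was 0.48 ± 0.09 (adjusted p = 0.00371), with 0.42 to 0.54 when single libraries were left out and 0.59 with the Xist term. Elf5, an ETS factor, was at 11.0, 11.4 and 11.2 CPM in WT and 15.8, 14.9 and 12.0 CPM in KO. The WT libraries were nearly equal and KO replicate 3 lay just above them. Its log2 fold change was 0.34 ± 0.11 (adjusted p = 0.0471), a call lost without any single library except KO replicate 3 (adjusted p from 0.0555 to 0.174).

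Grhl2, the grainyhead-like factor that sustains E-cadherin and claudin genes (ENSMUSG00000022286, chromosome 15, 37233036 to 37363569), was at 98.6, 89.9 and 97.7 CPM in WT and 74.8, 74.2 and 70.5 CPM in KO. All KO libraries were below all WT libraries. On the log2 scale the fold change was -0.38 ± 0.07 (adjusted p = 0.00393), and -0.35 with the Xist term (adjusted p = 0.0982). Grhl1 was at 4.84, 4.74 and 4.16 CPM in WT and 5.63, 5.26 and 5.89 CPM in KO, with groups apart and a log2 fold change of 0.29 ± 0.12 that did not pass (adjusted p = 0.0974). The CPM ratio of Grhl1 to Grhl2 was 0.0426 to 0.0527 in WT and 0.071 to 0.0835 in KO. Grhl3, listed with the other factors below, rose from 1.35 to 3.25 CPM, so the 3 grainyhead-like genes had log2 fold changes of -0.38, 0.29 and 1.27.

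Of the ETS factors next to Elf5, Ehf was at 144.2, 128 and 116.3 CPM in WT and 116.1, 114.7 and 106.6 CPM in KO, with a log2 fold change of -0.20 ± 0.09 (adjusted p = 0.111). Elf3 was at 48.4 ± 5.22 and 57.4 ± 7.1 CPM (adjusted p = 0.115). Ehf and Elf5 are neighbours on chromosome 2, at 103263433 to 103303278 and 103411688 to 103450989. The zinc finger repressors Ovol1 and Ovol2 had log2 fold changes of 0.39 ± 0.16 (adjusted p = 0.0992) and -0.08 ± 0.14 (adjusted p = 0.718). Mecom was at 56.0 ± 3.1 CPM in the WT and 56.9 ± 4.31 CPM in the KO libraries (adjusted p = 0.862). Barx2, a homeobox gene, rests on 35 reads in WT and 26 in KO (adjusted p = 0.522).

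Junction genes and other epithelial genes (keratins, splicing regulators, proteases and their inhibitors among them), in which GRHL2, OVOL and ELF factors are known to act, were listed together. All were expressed highly enough to test. Of 22, 5 were higher in KO (beside 12.0% of all genes), and none was lower by edgeR or DESeq2, with 1 lower at an unadjusted p below 0.05. Prom2 rose from 6.35 ± 1.05 to 10.1 ± 0.802 CPM (adjusted p = 0.00469), Cldn4 (claudin 4) from 940 ± 131 to 1263 ± 46.8 CPM (adjusted p = 0.0144), and Esrp2, an epithelial splicing regulator, from 63.3 ± 3.1 to 76.7 ± 2.75 CPM (adjusted p = 0.0204). The proteases and inhibitors St14 and Spint1 were the other 2. Of the 5, only Cldn4 is a junction gene, and the junction genes Cldn3, Cldn7, Marveld2 and Marveld3 were not called. Cdh1 (E-cadherin) was at 1022 ± 38.4 and 1202 ± 56.6 CPM with an adjusted p of 0.0535, and Epcam at 422 ± 19.9 and 376 ± 11.2 CPM with an adjusted p of 0.125. With the Xist term 1 was higher, Prom2 (adjusted p = 0.0273), beside 5.00% of all genes. Without KO replicate 1 the number higher was 1 (beside 6.83% of all genes) and without KO replicate 3 it was 2 (beside 7.37%). Without KO replicate 2 it was 3, with the share of all genes not given here.

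Beyond the 36, 58 other nephron and epithelial transcription factors were listed, of which 51 were tested. The KO level was higher for 13 and lower for 2, beside 12.0% and 9.08% of all genes, with a median log2 fold change of 0.13. Foxj1, the master factor of motile cilia, fell from 43.2, 61.0 and 64.8 CPM in WT to 25.2, 27.9 and 27.5 CPM in KO (log2 fold change -1.07 ± 0.13, adjusted p = 0.000402). Maf rose from 1.05 ± 0.0466 to 2.68 ± 0.382 CPM, Heyl, a Notch target, from 0.876 ± 0.112 to 2.06 ± 0.0649 CPM, and Vdr, the vitamin D receptor, from 7.85 ± 0.375 to 14.1 ± 2.17 CPM. The adjusted p-values of Maf, Heyl and Vdr were 0.000406, 0.000705 and 0.00083. These 4 genes also passed with the Xist term, where 6 were higher and 1 was lower (beside 5.00% and 1.62% of all genes). Without KO replicate 3, 6 were higher (beside 7.37%) and 1 was lower (beside 3.41%). Without WT replicate 2 (beside 5.56%) or KO replicate 2 (share of all genes not given here), 1 was lower.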

How the data were processed

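RNA was measured in 6 libraries, whose titles give the group and replicate number. For each library the authors deposited raw read counts by Ensembl gene. Trimmomatic 0.38, STAR 2.7.1a, HTSeq 0.11.2 and mm10 are named per the submitters' processing notes. The strand setting, annotation and treatment of multi-mapped reads are not given in any source used here. The library kit was TruSeq RNA Sample Prep, as the labels' protocols state. Without strand, reads of a gene and its antisense partner cannot be told apart.

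Symbols, coordinates and exon lengths came from GENCODE release M21 (GRCm38, the assembly of mm10). All 36 members matched, and 382 genes without a match held 0.017% of counts. The test was that of edgeR 4.0.16, run in R 4.3.3 (filterByExpr, TMM factors, quasi-likelihood model with genotype alone, Benjamini-Hochberg over 17571 tested genes, threshold 0.05). The SE of a log2 fold change is its size divided by the square root of F. Library totals of 86078636 to 106974842 counts leave the spread between libraries as the main error, except below about 1 CPM, where counting adds to it. Limits for 0 reads use 3 counts and cover counting error only. Alternatives used the replicate number as a block, other scaling factors and filters, DESeq2 1.42.0, limma-voom (limma 3.58.1), a covariate for Xist-positive libraries (over 10 CPM), and subsets of libraries. Scripts were tested on simulated data. Replicate pairs differed by a chi-square of 25 to 84.1 per degree of freedom, so none was a copy. The members, lists and the Xist term were chosen with earlier results of these data known. Every member is accounted for, and from each context list up to 4 called genes by smallest adjusted p are named (a few genes are not reported here), with well-known members added after their values were seen. Promoter windows are RefSeq's on GRCm38.p6. Figures were drawn with matplotlib 3.10.9.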

Additional observations from a re-analysis of the deposited data

How the results depend on the processing

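No fold change of a called factor changed sign in the 16 alternatives. Of 524 recomputed fold changes of single factors, 472 kept their side of the threshold, 32 lost a call and 20 gained one. With the Xist term 1163 genes were called, with 3 factors higher and 0 lower (2 lower at an unadjusted p below 0.05), and without the Xist-positive libraries 907 genes, 3 factors higher and 0 lower (again 2 lower at an unadjusted p). In these 2 settings the KO group rests on replicate 1, which is assumed to vary like the other libraries used. The cause was not tested. Leaving out single libraries gave 1683 to 3766 called genes (1683 without KO replicate 1, 1933 without KO replicate 3), 6 to 11 factors higher and 2 to 3 lower. The 11 higher came without WT replicate 1. Without WT replicate 1, WT replicate 3 or KO replicate 2, the share of all genes in each direction is not given here. The upper ends of these ranges therefore do not tell more called factors from more called genes.

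No pairing of the samples by replicate number is stated. The deviations of same-numbered libraries from their group means had correlations of 0.106, -0.26 and 0.0709, and those of other WT and KO pairs ran from -0.203 to 0.21. With 3 libraries a group these correlations are tied to each other, so they cannot exclude a pairing. The replicate block gave 3594 called genes, with 11 factors higher and 2 lower, Tfcp2l1 and Ppargc1a being the added calls. Upper-quartile factors gave 64.5% of calls higher in KO, and the main TMM factors 56.8%. DESeq2 called 11 factors higher and 3 lower, and no filter on low counts 12 and 3. For these settings and the replicate block, the share of all genes in each direction is not given here. Whether more factors or only more genes were called cannot be read from these counts. With the longest transcript in place of all exons, 17 of 36 levels per kilobase moved by more than 1 SD. Below about 1 CPM, as for Hnf4a and Osr2, read numbers limit precision.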

Other observations

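Irx3os and Gm16136, antisense genes at 2 of the called factors, were called in the same direction as the factor. Of all genes, 12.0% were higher and 9.08% lower. The antisense genes annotated at Hnf4a, Pax2 and Esrrg, and further ones at Tfap2a and Grhl2, are not described here, so these are examples and not a count. Irx3os, which shares 124 bases of exon with Irx3 on the opposite strand, was at 0.162, 0.273 and 0.300 CPM in WT and 0.624, 0.431 and 0.744 CPM in KO (log2 fold change 1.27 ± 0.31, edgeR adjusted p = 0.0142). Gm16136, which shares 169 bases with Grhl2, was at 4.35, 5.38 and 5.16 CPM in WT and 3.44, 2.93 and 3.27 CPM in KO (log2 fold change -0.63 ± 0.13, adjusted p = 0.00742). Both calls ended with the Xist term (adjusted p = 0.0929 and 0.142). Gm26688, which shares 380 bases with Tfap2a, was at 0.233 ± 0.0412 CPM in the WT and 0.377 ± 0.0172 CPM in the KO libraries and did not pass (adjusted p = 0.0879). Emx2os, beside Emx2, was at 5.14 ± 0.195 and 5.64 ± 0.407 CPM (adjusted p = 0.418). How reads in shared exons were assigned is not stated in the labels.

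Factors known to repress epithelial genes were also in the wider list. Zeb1 was at 3.67 CPM in the WT and 5.61 CPM in the KO libraries (adjusted p = 0.0117), Zeb2 at 4.43 and 10.0 CPM (adjusted p = 0.00115) and Snai1 at 0.199 and 0.477 CPM (adjusted p = 0.0409). Of the same kind, Twist1 was at 1.11 CPM (WT) and 0.778 CPM (KO), with the groups apart (adjusted p = 0.0961), and Snai2 at 0.341 and 0.405 CPM (adjusted p = 0.509). Trp63, a factor of basal epithelial cells, fell from 2.40 to 1.42 CPM (adjusted p = 0.0157). The Zeb2 call held with the Xist term (0.0157) and without any single library. That of Zeb1 ended with the Xist term (0.137) and without KO replicate 3 (0.0558), and that of Trp63 with the Xist term (0.296) and without WT replicate 2, KO replicate 2 or KO replicate 3 (0.0514 to 0.066). The Snai1 call ended with the Xist term (0.107) and without any single library except KO replicate 2 (0.054 to 0.143). The fibroblast, endothelial and leukocyte marker sums, which are higher in KO on average, stand beside these values, and their part was not tested.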
